A study of Mus musculus with 62 samples.

Results

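The genes described here are a set of interferon response genes, chosen from a list of 45 mouse symbols, and 44 of them were found among the 23038 genes of every table. They were measured by RNA sequencing in 62 libraries in 15 groups of BL6 background mice, in a study of Nova1, which encodes a neuronal RNA-binding protein that controls alternative splicing. The remaining symbol, Ifi27, is not used in the tables. RefSeq gives that name to the gene listed there as Ifi27l1 and, as an older name, to Ifi27l2a, and both were kept among the further pathway genes and not counted as members. The 44 members lie on 15 chromosomes, with some side by side, such as Ifit1, Ifit2 and Ifit3 on chromosome 19.

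Caudate putamen, hypothalamus, periaqueductal gray and substantia nigra were taken at postnatal day 21 from cKO mice, in which Nova1 was deleted in inhibitory neurons, and from cHet mice, the other genotype of the same design (4 libraries of each genotype per region). Pituitary came from the same genotypes and age (3 libraries each). Whole brains at P0 gave the RNA bound to tagged ribosomes of inhibitory neurons, a method called TRAP (6 libraries per genotype). Primary neurons of the ventral diencephalon and mesencephalon were prepared from embryos at e13.5, received lentivirus after 7 days of culture and were harvested after 14. The virus carried eGFP, Cre and Impact (Nova1 KO + Impact), eGFP and Cre (Nova1 KO), or eGFP alone (WT), with 4 libraries each, so all 3 neuron groups carry a lentivirus and eGFP. Impact is described by the submitters as a Nova1 target. The labels do not name the Cre driver, do not spell out cHet and do not say whether replicates are separate animals, so the p-values measure the spread between these libraries.

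Interferons are secreted proteins that cells release on sensing viral or misplaced nucleic acid. Type I interferons bind a receptor whose kinases phosphorylate transcription factors, STAT2 among them. With IRF9 these act at a promoter element called ISRE, while interferon gamma acts through an element called GAS. The genes induced include sensors and transcription factors that feed the response, effectors that bind viral RNA or block translation, enzymes that attach or remove the ubiquitin-like protein ISG15, and the machinery that loads peptides on MHC class I. In the brain, microglia, astrocytes, endothelium and neurons can all mount this response, and a low level is present without infection.

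Promoter sequence around the start site shows what the members share in sequence. RefSeq promoter windows (GRCm38.p6, 250 bases before to 50 bases after the start) were matched for 34 of the 44 members. The ISRE core, searched as GAAA, any 2 bases and GAAA again, or its reverse complement with TTTC in place of GAAA, was present in 16 of them (47.1%), against 3.99% of 27025 genes with a window. The GAS motif, TTC, any 3 bases and GAA, which reads the same on both strands, was present in 9 (26.5%), against 9.55% of genes. Members with an ISRE match were Stat2, Ddx58, Ifih1, Ifit1, Ifit3, Oas1a, Rsad2, Ifitm3, Bst2, Eif2ak2, Isg15, Trim30a, B2m, Gbp2, Gbp3 and Cxcl10. A match is a description of the letters and not a measured binding site. The stretches below, each upstream of the start site used for its window, show how the core is arranged. They come from 3 members that rose in the caudate putamen of cKO mice (Ifit1, Ifit3 and Bst2) and 2 that did not pass there (Isg15 and Stat2). For Ifit3 the start used, and the stretch, lie inside the RefSeq span of the gene. Capitals mark the ISRE matches. They lie at chr19:34640755-34640843, chr19:34583343-34583446 and chr10:128270248-128270315 on the plus strand and at chr8:71537557-71537632 and chr4:156200845-156200926 on the minus strand.
Ifit1: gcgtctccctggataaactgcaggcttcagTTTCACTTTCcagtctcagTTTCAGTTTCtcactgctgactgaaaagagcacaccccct
Ifit3: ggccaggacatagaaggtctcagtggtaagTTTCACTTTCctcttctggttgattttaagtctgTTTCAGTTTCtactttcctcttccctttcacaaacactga
Bst2: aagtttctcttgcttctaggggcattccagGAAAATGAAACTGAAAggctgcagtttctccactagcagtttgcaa
Isg15: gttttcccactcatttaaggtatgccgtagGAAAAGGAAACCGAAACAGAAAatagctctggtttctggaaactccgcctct
Stat2: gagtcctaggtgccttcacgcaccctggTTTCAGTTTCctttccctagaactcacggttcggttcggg

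Ifit1 and Ifit3 each hold 2 separate copies of the core in the TTTC orientation. In Bst2 the 2 matches overlap, in Isg15 3 matches overlap, and Stat2 has a single match. Among matched members, the core was found in 7 of 15 that rose in caudate putamen and in 8 of 17 that were tested there and did not pass, nearly the same share of each.

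Library totals ran from 15.4 to 24.3 M tags in the 4 brain regions, 20.95 to 29.5 M in primary neurons, 7.38 to 25.4 M in TRAP and 2.24 to 3.10 M in pituitary, where low genes are measured least precisely. Levels below are CPM, tags per M tags of a library's scaled total, unless RPKM is named. Nova1 was 14.3 ± 4.07 CPM in cKO and 52.1 ± 3.26 CPM in cHet caudate putamen (SD, n = 4 each). The title of caudate putamen cKO 1 says periaqueductal gray, in conflict with its tag for the tissue, which says caudate putamen. The tag was used, and the striatal receptor gene Drd1a stood at 192, 207, 201 and 186 CPM in cKO 1 to 4 of this region, against 1.37 to 2.76 CPM in the 4 cKO libraries of periaqueductal gray.

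In caudate putamen, 21 of the 42 members tested rose in cKO, none fell and 21 did not pass the test, while 34 had an unadjusted p under 0.05, as did 26.5% of all genes. Of all 15017 genes tested there, 10.4% were called in either direction, 5.32% higher and 5.06% lower (edgeR quasi-likelihood test, Benjamini-Hochberg adjusted p under 0.05). The log2 fold change was above 0 for 41 of the 42 members, the exception being Adar, and its median was 0.78 over the members against 0.00 over all genes. The list was chosen with earlier results of these data known, so its excess over all genes is not an independent test. In 17 members every cKO library lay above every cHet library, a pattern that 8.24% of all genes showed, and 16 of the 17 were called. The largest changes were those of Mx1 (fold 4.61), Oasl2 (3.47), Ifit3 (3.46), Irf7 (3.15) and Ifit1 (2.82). Samd9l and Cxcl10 had too few tags to be tested. The exon lengths listed for them are short, at 304 and 263 bases. Per kilobase of exon Cxcl10 was at 2.05 RPKM in cKO, near the member median of 1.93 RPKM there, so few tags do not mean a low level per length. In bulk tissue, more cells of a type and more RNA per cell cannot be told apart.

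The cKO libraries were not equally affected. Libraries 3 and 4 carried the highest values: cKO 4 was the highest cKO library for 38 of the 42 members, cKO 3 for 3 and cKO 1 for 1. Against the cHet mean, the median member was at 1.27, 1.17, 1.73 and 2.34 times in cKO 1 to 4, and at 0.961, 1.13, 0.943 and 0.933 times in cHet 1 to 4. Each cKO median therefore lay above each cHet median, although cKO 2 exceeded cHet 2 only slightly. Of the 42 members tested, 25, 21, 37 and 41 were above every cHet library in cKO 1 to 4, so cKO 2 exceeded all cHet libraries in the fewest members. The map of caudate putamen values by library shows the same order within nearly every role group.

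**Figure D1:**
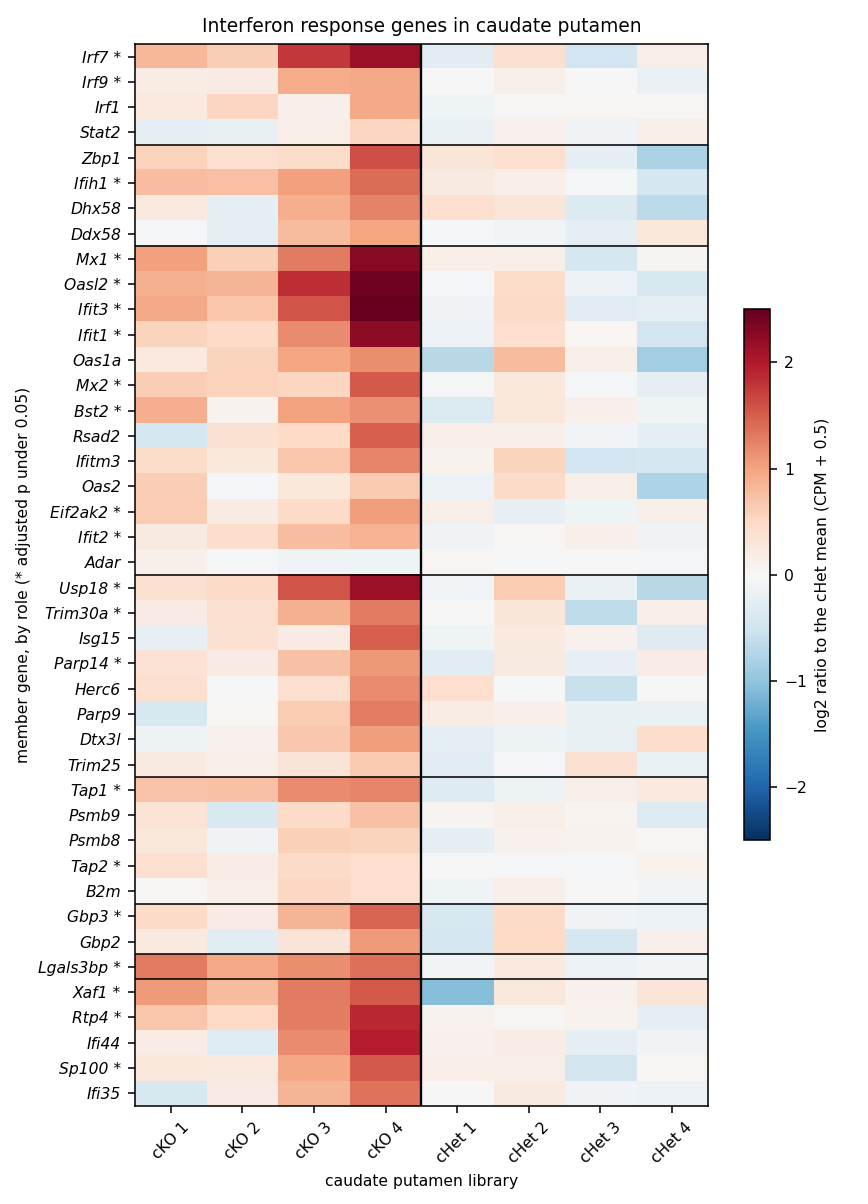
Log2 ratio of CPM (plus 0.5) to the cHet mean for the 42 members tested (rows, grouped by role, an asterisk marks adjusted p under 0.05) in the 4 cKO and 4 cHet libraries of caudate putamen (columns). Red is above the cHet mean and blue below; cKO 4 is the highest cKO library for 38 members.

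Among the transcription factors, 2 of 4 rose. Irf7, the regulator that amplifies type I interferon production, was at 4.62, 3.93, 9.37 and 12.4 CPM in cKO 1 to 4, against 1.92, 3.34, 1.59 and 2.75 CPM in cHet 1 to 4 (log2 fold change 1.66, SE 0.32, adjusted p = 0.00482). Irf9, the DNA-binding subunit of the complex that acts at the ISRE, was at 10.34, 10.5, 17.7 and 17.8 CPM in cKO and at 9.03, 10.1, 8.96 and 8.03 CPM in cHet (0.64, SE 0.17, adjusted p = 0.0264). Neither gene's groups overlapped, and for both the gap to the highest cHet library was small in cKO 1 and 2 and wide in cKO 3 and 4. Stat2, another subunit of that complex, was at 20.9, 21.5, 27.7 and 36.0 CPM in cKO and at 21.8, 26.5, 23.1 and 27.2 CPM in cHet, so the groups overlapped (0.10, SE 0.14, adjusted p = 0.687). Irf1, a factor induced most strongly by interferon gamma, was higher in every cKO library but missed the threshold (0.56, SE 0.20, adjusted p = 0.0856).

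Of the 4 sensors of nucleic acid, Ifih1 rose. It encodes MDA5, which detects long double-stranded RNA, and was at 5.37, 5.35, 6.53 and 8.58 CPM in cKO, against 3.53, 3.39, 2.81 and 2.06 CPM in cHet, with no overlap (log2 fold change 1.12, SE 0.20, adjusted p = 0.00294). Ddx58, the gene of the sensor RIG-I, was at 5.47, 4.73, 10.2 and 11.6 CPM in cKO and at 5.50, 5.39, 4.69 and 6.97 CPM in cHet (0.50, SE 0.24, adjusted p = 0.188). Dhx58, the gene of their regulator LGP2, was at 1.79, 1.14, 3.14 and 4.08 CPM in cKO and at 2.09, 1.91, 1.03 and 0.739 CPM in cHet (0.79, SE 0.37, adjusted p = 0.191). For both, cKO 3 and 4 were above every cHet library and cKO 1 and 2 were within the cHet range. Zbp1, a sensor of Z-form nucleic acid, reached 1.48 (SE 0.57, adjusted p = 0.105).

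The effectors that act on viral RNA, translation or membranes held the most calls, 8 of 13 tested. Ifit1, Ifit2 and Ifit3 encode proteins that bind foreign RNA and hinder its translation. Ifit3 was at 6.76, 5.63, 10.8 and 22.7 CPM in cKO, against 3.05, 4.77, 2.63 and 2.69 CPM in cHet (log2 fold change 1.79, SE 0.35, adjusted p = 0.00482). Ifit1 was at 3.03, 2.89, 4.89 and 10.8 CPM in cKO and at 1.66, 2.72, 1.97 and 1.21 CPM in cHet (1.5, SE 0.37, adjusted p = 0.0171), and Ifit2 rose by 0.64 (SE 0.16, adjusted p = 0.0173). None of the 3 overlapped between groups, and cKO 4 carried the top value of each. Oasl2, related to the enzymes whose product activates RNase L, was at 5.96, 5.82, 12.02 and 18.3 CPM in cKO and at 2.88, 4.29, 2.67 and 2.16 CPM in cHet (1.80, SE 0.32, adjusted p = 0.00287). Mx1, a dynamin-like antiviral GTPase that is known to be defective in BL6 mice, was the lowest in level of the 5 largest changes, at 1.39, 0.899, 1.80 and 3.97 CPM in cKO and 0.524, 0.525, 0.188 and 0.475 CPM in cHet (2.21, SE 0.45, adjusted p = 0.00657).

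Eif2ak2, the gene of PKR, a kinase that halts translation by phosphorylating eIF2, was at 13.9, 10.27, 12.5 and 18.6 CPM in cKO and at 9.78, 7.54, 8.11 and 9.71 CPM in cHet (log2 fold change 0.65, SE 0.16, adjusted p = 0.0163). Its groups did not overlap, and cKO 2 was the closest to cHet. Mx2 (0.98, SE 0.23, adjusted p = 0.0150) and Bst2, the gene of tetherin, which holds budding virus at the membrane (0.94, SE 0.23, adjusted p = 0.0168), also rose. Adar, which edits adenosine in double-stranded RNA, was the most abundant of these, at 173, 154, 149 and 148 CPM in cKO and 165, 158, 158 and 155 CPM in cHet (-0.02, SE 0.06, adjusted p = 0.831). Not passing were Oas1a (1.10), Oas2 (0.67), Rsad2, the gene of viperin (0.80), and Ifitm3, which blocks membrane fusion (0.75, adjusted p = 0.0571).

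Of the genes for ISG15, ubiquitin and ADP-ribosylation, 3 of 8 rose: Usp18, which removes ISG15 and dampens receptor signalling (log2 fold change 1.49, SE 0.38, adjusted p = 0.0207), Trim30a (0.86, SE 0.27, adjusted p = 0.0488) and Parp14. Parp14, an ADP-ribosyltransferase, was at 5.37, 4.78, 7.13 and 9.22 CPM in cKO and at 3.27, 4.82, 3.47 and 4.70 CPM in cHet (0.70, SE 0.21, adjusted p = 0.0379). The groups touched, since cKO 2 lay just under the highest cHet library. Trim25, a ubiquitin ligase of the RIG-I pathway, was at 9.24, 8.89, 9.97 and 12.6 CPM in cKO and at 6.50, 7.63, 10.4 and 6.92 CPM in cHet (0.37, adjusted p = 0.137). Herc6, the main mouse ligase for ISG15, was at 8.50, 6.01, 8.43 and 14.7 CPM in cKO and at 8.42, 6.15, 4.08 and 6.18 CPM in cHet (0.59, adjusted p = 0.120). For Trim25 1 cHet library reached into the cKO range, and for Herc6 all but the lowest did. Isg15 itself (0.77, adjusted p = 0.188), Dtx3l (0.55) and Parp9 (0.57) did not pass. Dtx3l and Parp9 are neighbouring genes, and how reads shared by neighbouring genes were counted is not given in the sources used.

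The peptide transporter genes rose in the MHC class I group, 2 of 5. Tap2 was at 9.24, 7.81, 9.72 and 9.28 CPM in cKO and at 6.72, 6.68, 6.52 and 7.29 CPM in cHet (log2 fold change 0.41, SE 0.12, adjusted p = 0.0401), and Tap1 rose by 1.16 (SE 0.22, adjusted p = 0.00406). Neither overlapped between groups. B2m, the light chain of MHC class I, was at 50.5, 55.0, 71.2 and 66.1 CPM in cKO and at 45.7, 54.9, 49.5 and 47.1 CPM in cHet (0.30, SE 0.10, adjusted p = 0.0571), with cKO 1 inside the cHet range. Psmb8, an immunoproteasome subunit, was at 3.93, 2.93, 5.04 and 4.88 CPM in cKO and at 2.57, 3.43, 3.38 and 3.22 CPM in cHet (0.41, adjusted p = 0.193), and its partner Psmb9 reached 0.53 (adjusted p = 0.396). Of the guanylate-binding GTPases, Gbp3 was at 9.14, 7.52, 12.02 and 18.5 CPM in cKO and at 4.80, 9.20, 6.05 and 5.81 CPM in cHet (0.86, SE 0.24, adjusted p = 0.0300). Gbp2 was at 2.83, 1.84, 3.04 and 5.36 CPM in cKO and at 1.61, 3.48, 1.59 and 2.59 CPM in cHet (0.49, adjusted p = 0.335). Both overlapped between groups, and cHet 2 was the highest cHet library for each. Gbp genes have close relatives, so their tags may be split among copies.

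Lgals3bp, which encodes a secreted glycoprotein that binds galectins, had the lowest p of all members. It was at 47.5, 36.9, 42.7 and 49.6 CPM in cKO and at 18.1, 22.4, 17.1 and 18.004 CPM in cHet, or 44.2 ± 5.65 CPM and 18.9 ± 2.36 CPM (SD, n = 4 each). The log2 fold change was 1.22 (SE 0.10, adjusted p = 7.34e-06). Unlike most members, it was about equally high in all 4 cKO libraries. Cxcl10, the gene of a chemokine that attracts T cells, was at 0.149, 0, 0.499 and 1.5 CPM in cKO and at 0.436, 0.0954, 0.235 and 0.422 CPM in cHet and was not tested.

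The remaining induced genes gave 3 calls among 5. Xaf1, whose product binds the apoptosis inhibitor XIAP, was at 3.58, 2.89, 4.29 and 5.15 CPM in cKO and at 0.436, 1.86, 1.59 and 1.90 CPM in cHet (log2 fold change 1.47, SE 0.32, adjusted p = 0.00853). Rtp4, a receptor transporter gene, was at 2.63, 2.22, 4.19 and 6.70 CPM in cKO and at 1.57, 1.48, 1.55 and 1.16 CPM in cHet (1.43, SE 0.31, adjusted p = 0.00830). Sp100, a nuclear body gene, was at 3.03, 2.98, 5.24 and 8.04 CPM in cKO and at 2.79, 2.81, 1.64 and 2.53 CPM in cHet (0.97, SE 0.29, adjusted p = 0.0413). Their groups did not overlap, although Sp100 in cKO 1 and 2 was close to the highest cHet value. Ifi44 (1.39, adjusted p = 0.0793) and Ifi35 (0.78, adjusted p = 0.15) did not pass.

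Between 13 and 25 members rose in caudate putamen when 1 library at a time was left out, in fits that called 2.79 to 6.36% of all genes higher. The lowest count, 13, came without cHet 1 or without cHet 4, and 14 rose without cKO 4. Of the 21 members called with all libraries, 11 were called in each of the 8 fits: Ifih1, Ifit2, Ifit3, Irf7, Lgals3bp, Mx1, Mx2, Oasl2, Rtp4, Tap1 and Xaf1. The same count over all genes called higher is not given here, so the 11 cannot be set against a background.

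A wider list of 109 genes of interferon signalling and response, 100 of them found and 80 tested in caudate putamen, gave 18 that rose and 1 that fell. Of all genes tested there, 5.32% were called higher and 5.06% lower. The wider list too was chosen with earlier results of these data known. Interferon ligands were nearly silent: of 8 found, 7 had no tag in any caudate putamen library, none was tested, and their summed level was at most 0.0473 CPM in cKO and 0 in cHet. None of 5 receptor genes and none of 13 genes for sensing adaptors and kinases passed the test. Of 7 genes tested for signalling below the receptors and its feedback, 1 passed: Ptpn11, a phosphatase gene, rose by 0.17 on the log2 scale (SE 0.05, adjusted p = 0.0387).

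Among 55 further induced genes of the wider list that were tested, 17 rose and 1 fell, with a median log2 fold change of 0.41. The MHC class I gene H2-D1 was at 48.3 ± 4.77 CPM in cKO and 30.8 ± 1.53 CPM in cHet (SD, n = 4 each), a log2 fold change of 0.65 (SE 0.08, adjusted p = 0.000242). Its copies are similar to other class I genes, so its tags are uncertain. Nlrc5, the transactivator of MHC class I genes, rose by 2.15 (SE 0.45, adjusted p = 0.00744), the DNA sensor gene Aim2 by 0.87 (SE 0.16, adjusted p = 0.00399) and the proteasome activator gene Psme1 by 0.50 (SE 0.11, adjusted p = 0.00923). Also higher were Rnf114 (0.40), Epsti1 (1.29), Oas1b (1.53) and the GTPase genes Irgm1 (0.78) and Igtp (1.06). The 1 that fell was Ifitm1 (-1.10, SE 0.33, adjusted p = 0.0451).

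Marker genes of cells that could carry such a response were measured in the same libraries. Microglial markers summed to between 922 and 1142 CPM in cKO and between 962 and 1082 CPM in cHet, and of 18 tested, Ctss rose (0.41) while Fcrls (-1.05) and Olfml3 (-0.86) fell. Markers of border macrophages and monocytes summed to 16.8 to 26.7 CPM in cKO and 16.4 to 25.5 CPM in cHet, with Plac8 higher (1 of 5 tested). Of 11 lymphocyte markers, Ncr1 had no tag, 2 were tested and none passed, and the sum (66.2 to 92.5 CPM in cKO, 66.8 to 79.0 CPM in cHet) was nearly all Cd4, which was at 64.2 to 88.7 CPM in cKO and 64.4 to 75.0 CPM in cHet. The granulocyte sum stayed at or below 0.804 CPM in cKO and 0.525 CPM in cHet. Markers of reactive astrocytes summed to 143 to 169 CPM in cKO, above the 99.5 to 115 CPM in cHet, with Serpina3n (0.64) and C4b (0.83) called of 5 tested. Markers of endothelium and pericytes summed to 270 to 332 CPM in cKO, below the 356 to 410 CPM in cHet, and 3 of 14, Kdr, Rgs5 and Vtn, fell. Of the other marker lists, 1 of 11 astrocyte, 2 of 8 oligodendrocyte and 2 of 4 erythroid genes tested fell, 1 of 8 striatal genes rose and 2 fell, and Bst2, itself a member, was the only 1 of 5 plasmacytoid dendritic cell genes called. For scale, 5.32% of all genes tested in caudate putamen were called higher and 5.06% lower. A single call in so short a list therefore says little about a cell type. The part of these markers in the interferon result was not tested.

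In the other 3 regions few members were called. The fall of Nova1 itself also differed between regions (log2 fold change, edgeR adjusted p). It was -1.86 in caudate putamen (2.77e-06), -1.14 in substantia nigra (0.000415), -0.61 in hypothalamus (0.00236) and -0.30 in periaqueductal gray (0.114, not passed). Whether the number of member calls follows the fall of Nova1 was not tested. In hypothalamus 1 of 37 members tested rose and 1 fell, where 12% of all genes were called (5.57% higher and 6.42% lower), and the median log2 fold change was 0.13. Lgals3bp was at 31.6, 29.8, 34.2 and 34.98 CPM in cKO and at 23.5, 26.6, 23.7 and 17.8 CPM in cHet, with no overlap (log2 fold change 0.51, SE 0.10, adjusted p = 0.00370). Stat2 was at 14.1, 19.5, 19.2 and 23.7 CPM in cKO and at 22.6, 24.3, 26.3 and 25.2 CPM in cHet (-0.37, SE 0.12, adjusted p = 0.0481), and cKO 4 reached into the cHet range. The median member stood at 1.33 times the cHet mean in cKO 4, and between 0.912 and 1.05 times in the other cKO libraries. Stat2 lost its call in all but 1 of the 8 fits that left out a library (highest adjusted p = 0.149, without cKO 1).

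In periaqueductal gray 1 of 39 members tested rose and none fell, where 9.73% of all genes were called (4.33% higher and 5.4% lower). At an unadjusted p under 0.05 there were 3 members, and 24.8% of all genes. Tap1 was at 2.94, 2.81, 4.73 and 3.47 CPM in cKO and at 2.96, 1.54, 1.49 and 1.56 CPM in cHet (log2 fold change 0.87, SE 0.27, adjusted p = 0.0470). The library cHet 1 stood apart from the other cHet libraries. Ifit3 was at 5.79, 9.65, 22.8 and 8.32 CPM in cKO and at 22.5, 4.93, 3.74 and 4.13 CPM in cHet. Oasl2 was at 3.91, 7.72, 21.2 and 4.24 CPM in cKO and at 21.1, 4.35, 1.25 and 3.26 CPM in cHet. In both genes cHet 1 was as high as the highest cKO library, cKO 3, while the rest of the cHet libraries were low. The median member was at 1.56 times the cHet mean in cHet 1 and at 0.709 to 0.927 times in the others, against 1.72 times in cKO 3 and 0.779 to 1.09 times in the other cKO libraries. Without cHet 1, where 3.41% of all genes were called higher, 8 members rose: Usp18 (2.21), Oasl2 (1.63), Ifit3 (1.44), Bst2 (1.33), Tap1 (1.18), Gbp3 (1.17), Eif2ak2 (0.74) and Lgals3bp (0.60), with edgeR adjusted p from 0.0036 to 0.0491. That library stood out by its values in the members themselves, while the high cKO 3 stayed in. These calls therefore give no independent support for a rise. Leaving out cKO 1 gave a single call, Eif2ak2, and leaving out any other library gave 0.

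In substantia nigra 1 of 41 members tested rose and 1 fell, where 9.81% of all genes were called (4.35% higher and 5.46% lower), and the median log2 fold change was 0.19. Mx2 was at 11.1, 7.77, 8.01 and 7.90 CPM in cKO and at 5.82, 5.70, 6.98 and 5.07 CPM in cHet, with no overlap (log2 fold change 0.55, SE 0.16, adjusted p = 0.0377). Adar was at 120.0, 138, 119 and 129 CPM in cKO and at 155, 165, 161 and 138 CPM in cHet (-0.29, SE 0.07, adjusted p = 0.0216), with cKO 2 and cHet 4 at nearly the same level. The libraries of both genotypes were split: the median member was at 1.46 and 1.32 times the cHet mean in cKO 3 and 4 and at 0.796 and 0.741 times in cKO 1 and 2, and it ran from 0.773 to 1.21 times in cHet. Mx2 lost its call in all of the fits that left out a library except those without cHet 3 or cKO 4 (highest adjusted p = 0.123, without cKO 1). With the replicate block it was not called either (adjusted p = 0.0641).

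**Figure D2:**
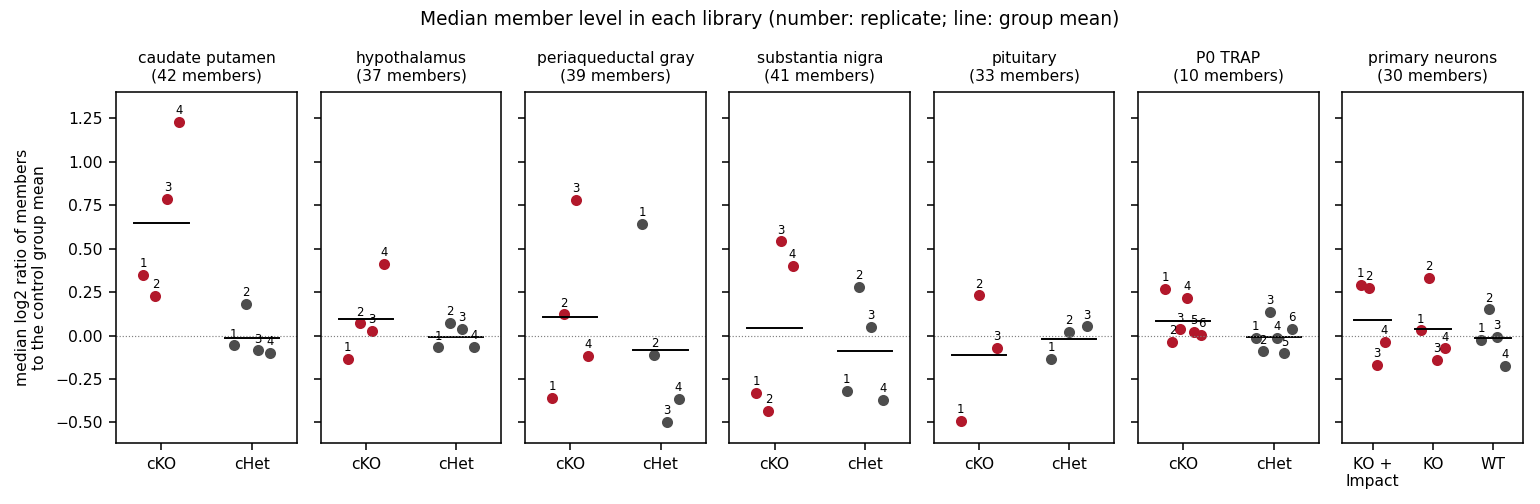
Median log2 ratio over the tested members in each library to the mean of the control group (cHet, or WT for neurons), by tissue; red points are cKO, KO or KO + Impact, grey points cHet or WT, numbers are replicates and lines group means. The 4 caudate putamen cKO points lie above all 4 cHet points, while in periaqueductal gray cHet 1 stands with cKO 3.

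The libraries numbered 3 and 4 were thus the high cKO libraries in caudate putamen and substantia nigra, cKO 4 in hypothalamus and cKO 3 in periaqueductal gray. The labels do not say that a number marks the same mouse in different regions. Across genes, which are not independent replicates, the deviations of same-numbered cKO libraries of caudate putamen and another region from their group means correlated between 0.0638 and 0.325. The cKO libraries matched their own number best, except pair 1 with hypothalamus and pair 4 with substantia nigra. Deviations of same-numbered cHet libraries correlated between -0.0514 and 0.22, and several of these matched another number best.

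Whether the caudate putamen effect differed from the other regions was tested in a fit over all 4 that took every library as independent. The effect in caudate putamen minus the mean effect of the other 3 was above 0 for 42 of 43 members, with a median of 0.72 against 0.01 over all genes, but 0 of 43 members passed (edgeR quasi-likelihood test). Of all genes 0.536% passed. At an unadjusted p under 0.05 there were 14 members, and 11.2% of all genes. The lowest adjusted p, 0.0696, was that of Lgals3bp, whose difference was 0.88 (SE 0.23). Its log2 fold changes were 1.22 in caudate putamen, 0.27 in substantia nigra, 0.26 in periaqueductal gray and 0.51 in hypothalamus. The interaction of genotype with region gave 0 of 43 calls as well, where 0.318% of genes passed (5 members and 8.69% of all genes at an unadjusted p under 0.05, lowest adjusted p = 0.236). Under an alternative chosen after seeing the data, which took the libraries sharing a number within a genotype as a block, 2 members passed: Lgals3bp (0.88, adjusted p = 0.0261) and Ifitm3 (1.03, adjusted p = 0.0194). Of all genes, 0.729% were called higher under it. Lgals3bp was also called in hypothalamus and Ifitm3 was not called in caudate putamen, so no call made in caudate putamen alone was shown to differ from the other regions.

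**Figure D3:**
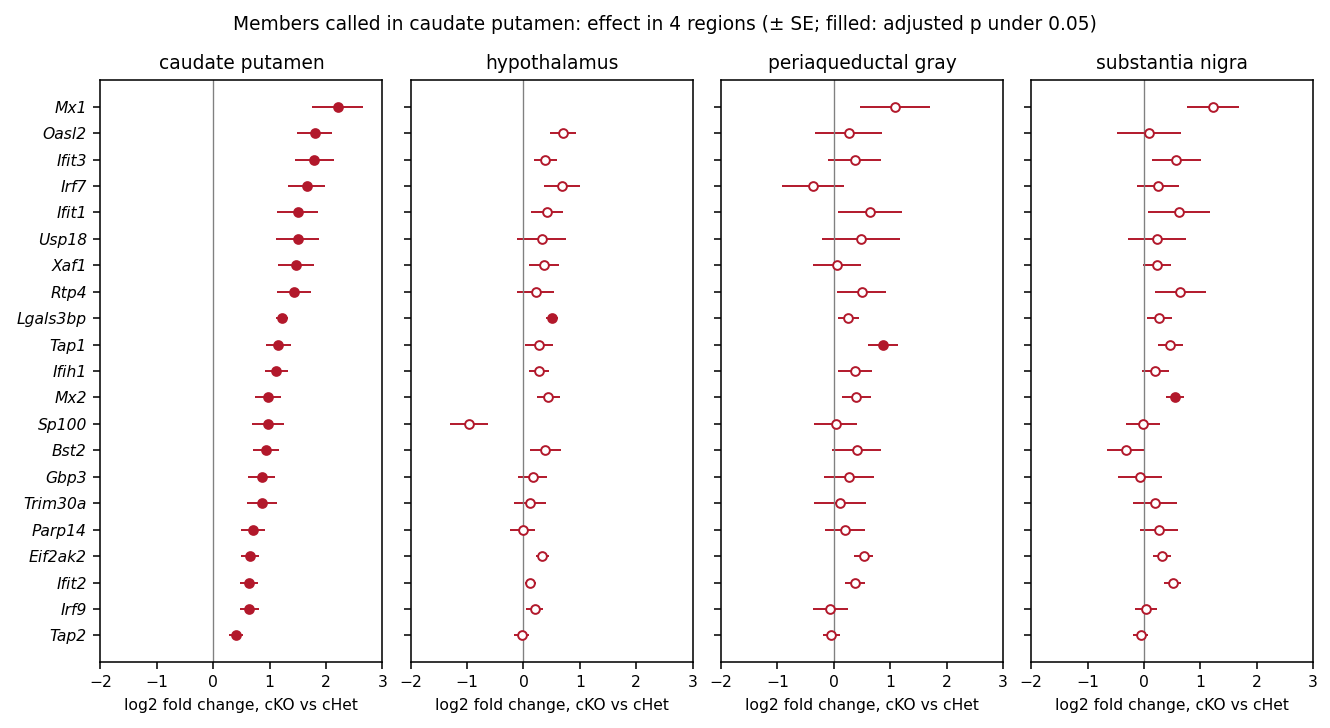
Log2 fold change, cKO against cHet, with its SE, of the 21 members called in caudate putamen (rows) in 4 brain regions (panels); filled points have an adjusted p under 0.05. In the other regions the filled points are Lgals3bp in hypothalamus, Tap1 in periaqueductal gray and Mx2 in substantia nigra; Mx1 was not tested in hypothalamus.

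In pituitary 0 of 33 members tested passed (edgeR, lowest adjusted p = 0.696; 1 member and 6.55% of all genes at an unadjusted p under 0.05; DESeq2 and voom also gave 0), where 0.00815% of all genes were called. The member with the lowest p was Ifi44, at 0.831, 4.69 and 2.65 CPM in cKO and 7.91, 6.52 and 5.83 CPM in cHet (log2 fold change -1.28, SE 0.54). Its groups did not overlap, as for 3 members in all that were lower and 1 that was higher in cKO, none of them called. The share of all genes without overlap is not given here for pituitary. The depth of these libraries was the lowest of the series. Nova1 was 5.02 ± 1.14 CPM in cKO and 9.15 ± 0.982 CPM in cHet pituitary (SD, n = 3 each), and its own test did not pass either (adjusted p = 0.761).

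In TRAP, only 10 members had enough ribosome-bound RNA to be tested, and 0 passed (edgeR, lowest adjusted p = 0.641; 1 member and 7.43% of all genes at an unadjusted p under 0.05; DESeq2 and voom also gave 0), where 0.0307% of all genes were called. Nova1 fell by 3.03 on the log2 scale in the same libraries. Tap1 had the lowest p, with a lowest, median and highest value of 1.35, 2.26 and 3.99 CPM in cKO and 3.06, 3.53 and 5.50 CPM in cHet (log2 fold change -0.52, SE 0.23), so the groups overlapped. Irf7 was at 0.361 ± 0.292 CPM in cKO and 0.360 ± 0.255 CPM in cHet, and Ifit3 at 0.110 ± 0.113 CPM in cKO and 0.0901 ± 0.0934 CPM in cHet (SD, n = 6 each). Neither gene passed the filter on low counts, so neither was tested.

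In primary neurons no member passed in any of the 3 comparisons when replicate numbers were left out of the fit (30 tested in each, edgeR). The shares of all genes given for neurons are from that fit unless the block is named. For KO + Impact against WT, 0.378% of all genes were called, and 1 member, Gbp2, had an unadjusted p under 0.05, as did 8.48% of all genes. Gbp2 was at 2.26, 0.985, 0.985 and 1.4 CPM in KO + Impact and at 0.571, 0.296, 0.585 and 0.426 CPM in WT (log2 fold change 1.55, SE 0.37, adjusted p = 0.107). With the replicate number as a block, which the correlation of same-numbered neuron libraries warrants, 2 members rose in this comparison, Gbp2 (1.51, adjusted p = 0.0196) and Lgals3bp (0.52, adjusted p = 0.0226), where 1.42% of all genes were called higher. DESeq2 without the block called Gbp2 alone. Lgals3bp was at 8.50, 7.39, 4.82 and 4.24 CPM in KO + Impact and at 4.97, 5.83, 3.58 and 2.98 CPM in WT, higher in KO + Impact for each number.

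For KO + Impact against KO, edgeR gave 0 calls and 0 members with an unadjusted p under 0.05, where 0.00674% of all genes were called and 3.11% had such a p, and DESeq2, voom and the block also gave 0. B2m, which had the lowest p, was at 19.1, 18.4, 16.4 and 17.5 CPM in KO + Impact and at 13.6, 17.6, 17.1 and 14.9 CPM in KO, and the groups overlapped. For KO against WT, 2 members had an unadjusted p under 0.05, where 0.722% of all genes were called and 11% had such a p. Gbp2 was at 0.642, 1.5, 0.827 and 1.15 CPM in KO and at 0.571, 0.296, 0.585 and 0.426 CPM in WT (log2 fold change 1.11, SE 0.38, adjusted p = 0.236). Ifit3, the other member, was at 1.47, 1.25, 1.73 and 1.15 CPM in KO and at 1.79, 1.90, 2.14 and 1.84 CPM in WT (-0.45, SE 0.21, adjusted p = 0.426). The mean of Gbp2 was higher and that of Ifit3 lower in KO, and neither gene passed the test. DESeq2, voom and the block gave 0 calls of members here too, while the block called 942 genes in all against 107 without it. The comparisons share libraries, so their values are not independent.

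Per kilobase of exon, the deposited RPKM values place the members at low levels in every tissue. The median over the 44 members of the group mean was 1.93 RPKM in cKO and 1.08 RPKM in cHet caudate putamen, 1.13 and 0.922 RPKM in cKO and cHet hypothalamus, 1.27 and 1.17 RPKM in cKO and cHet periaqueductal gray, and 1.90 and 1.77 RPKM in cKO and cHet substantia nigra. It was 3.77 RPKM in cKO and 3.0 RPKM in cHet pituitary, 0.111 and 0.109 RPKM in cKO and cHet TRAP, and 0.309, 0.332 and 0.283 RPKM in KO + Impact, KO and WT neurons. The median over the members thus was lowest in the preparations made of neurons or their ribosomes. Not every member followed it: Stat2 was 11.8 RPKM in WT neurons and 5.37 RPKM in cHet caudate putamen. The neuron and TRAP preparations also differ from the other tissues in age and method, so cell type cannot be told apart from these. The share of tags on the ribosomal RNA gene Rn45s differed too. It was 5.30 to 8.40% in neurons, 13.8 to 25.6% in TRAP, 15.4 to 40.8% in pituitary and 0.472 to 1.89% in the brain regions. In pituitary the higher median in cKO rests on the unscaled RPKM, since the median scaled log2 fold change was -0.08.

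By RPKM, B2m was the highest member in the brain regions and pituitary, and Adar in neurons and TRAP. B2m was 159 ± 34.6 RPKM in cKO and 141 ± 12.98 RPKM in cHet substantia nigra, 96.9 ± 18.7 and 83.9 ± 17.7 RPKM in cKO and cHet pituitary, and 79.9 ± 13.46 and 64.9 ± 5.64 RPKM in cKO and cHet caudate putamen. It was 49.9 ± 3.76 and 51.5 ± 10.31 RPKM in cKO and cHet periaqueductal gray, 47.5 ± 5.92 and 47.5 ± 2.58 RPKM in cKO and cHet hypothalamus, 23.4 ± 1.65, 20.6 ± 2.33 and 22.8 ± 2.98 RPKM in KO + Impact, KO and WT neurons, and 8.18 ± 2.25 and 8.89 ± 1.69 RPKM in cKO and cHet TRAP (SD). Periaqueductal gray and hypothalamus, as neighbours in this order, did not differ beyond their spread. Lgals3bp stood in cHet at 23.1 ± 5.2 RPKM in pituitary, 12.9 ± 5.14 RPKM in substantia nigra, 11.8 ± 4.90 RPKM in periaqueductal gray, 9.997 ± 1.65 RPKM in hypothalamus and 8.24 ± 1.11 RPKM in caudate putamen. In cKO it was 19.2 ± 2.42 RPKM in caudate putamen, the highest of the cKO brain regions, which ran from 14.2 RPKM in hypothalamus to 15.7 RPKM in substantia nigra otherwise. Ifit3 was 5.76 ± 3.96 RPKM in cKO and 1.65 ± 0.519 RPKM in cHet caudate putamen, a cHet level below the 4.94 ± 2.47 RPKM of cHet substantia nigra.

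**Figure D4:**
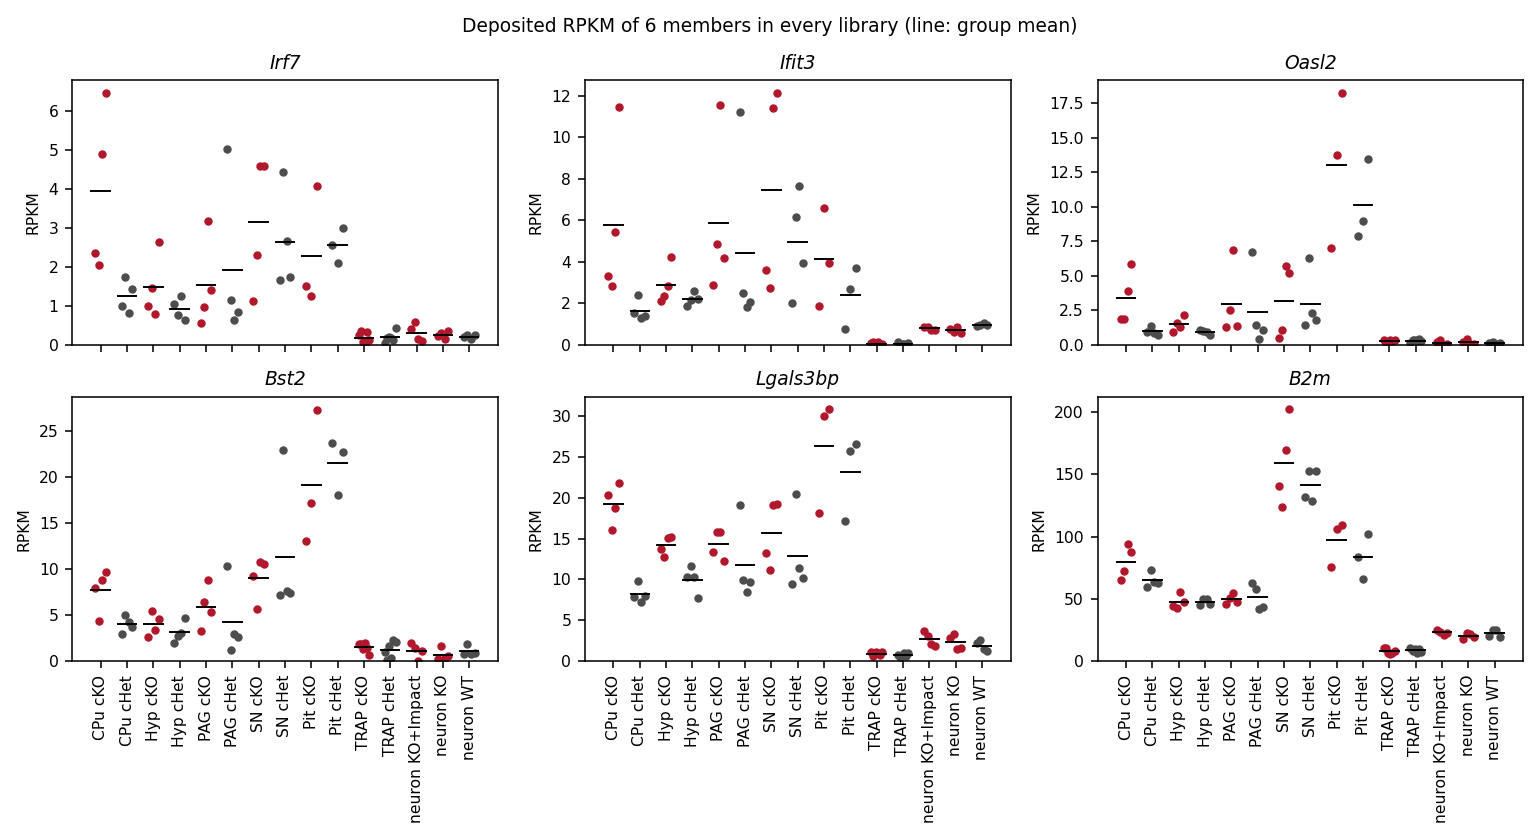
Deposited RPKM of 6 members in every library of the 15 groups (red: cKO, KO or KO + Impact; grey: cHet or WT; line: group mean; each panel has its own axis from 0). Neuron and TRAP group means are the lowest for all 6 genes, and a single cHet library stands high in periaqueductal gray for Irf7, Ifit3, Oasl2, Bst2 and Lgals3bp.

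Members without a single tag in a group were few. Sp100 had none in the 3 neuron groups, and Zbp1 and Samd9l had none in KO neurons. Mx1 and Cxcl10 had none in cKO and Cxcl10 none in cHet pituitary. In TRAP, Zbp1, Mx2, Samd9l and Cxcl10 had none in cKO, and Samd9l and Cxcl10 none in cHet. In each brain region every member had a tag in at least 1 library of each genotype.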

How the data were processed

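RNA was poly(A)-selected and made into TruSeq libraries, per the labels' protocols. The deposited tag numbers are whole counts per gene in the 6 pituitary tables and estimated counts, fractional for 4.56 to 18.8% of genes, in the other 56. The estimated counts were rounded. RPKM values are the authors', per kilobase of exon and M tags. The submitters' processing notes name mm10 and edgeR, while the aligner, counter, annotation and treatment of multiply mapped reads were not given in the sources used. Genes kept by filterByExpr (minimum count 10, minimum total 15) were TMM-scaled and tested with edgeR 4.0.16 (R 4.3.3, quasi-likelihood F test, Benjamini-Hochberg over all genes tested, threshold 0.05), each tissue by itself, the 3 neuron groups together and the 4 regions together. The method was tested on simulated data. Alternatives used DESeq2 1.42.0 and voom with quality weights in limma 3.58.1, other scaling and filters, a replicate block, a sex term in TRAP and leaving out each library.

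The members and gene lists were chosen with earlier results of these data known. Values per library are given for up to 3 members of each role with the highest mean in caudate putamen and for the 5 largest called changes; in other comparisons the called members are named, or the one with the lowest p. Others were named after their values were seen, and 1 gene of the pathway list is not reported here. Replicate numbers were taken to pair libraries where every same-numbered pair's deviations correlated above 0.1 across genes, as in neurons (0.324 to 0.569) and pituitary (0.149 to 0.160); this was not so in any of the 4 brain regions or in TRAP. No pair of replicates agreed within counting noise (lowest chi-square per degree of freedom 3.62). Promoters and gene positions are from RefSeq, GRCm38.p6.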

Additional observations from a re-analysis of the deposited data

Results flagged for a closer look

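Of 131 sets of values tested for a sample far from the rest of its group, 8 had one, and chance gives about 1 in 20. The periaqueductal gray library cHet 1 accounts for 4: Ifit3 was at 22.5 CPM there and at 3.74 to 4.93 CPM in the other cHet libraries, Oasl2 at 21.1 against 1.25 to 4.35 CPM, Irf7 at 9.73 against 1.25 to 2.18 CPM, and Lgals3bp at 44.0 against 19.99 to 22.4 CPM. Bst2 was at 17.4 CPM in substantia nigra cHet 2, where the other cHet libraries had 5.54 to 6.05 CPM. In WT neurons Bst2 was at 1.44 CPM in library 2 and at 0.611 to 0.662 CPM in the others. Mx1 was lowest in caudate putamen cHet 3, at 0.188 CPM against 0.475 to 0.525 CPM. The median log2 ratio of the members to the cHet mean was 0.18 in caudate putamen cHet 2 and lay between -0.10 and -0.06 in the other 3 cHet libraries.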

How the results depend on the processing

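In caudate putamen, the number of members that rose was 20 to 23 under the other scaling, filter, tool and block settings and 13 to 25 with 1 library left out, against 21, and 0 fell in any of them. With the replicate block, which the labels do not support as a pairing in the brain regions, it was 23. In hypothalamus 2 rose and 2 fell without the filter on low counts, 2 rose with DESeq2, and with 1 library left out 1 to 2 rose and 0 to 2 fell. In periaqueductal gray 2 rose without the filter and with DESeq2, 1 fell with DESeq2 and with the replicate block, and 0 to 8 rose with 1 library left out. In substantia nigra 2 rose with DESeq2, 3 with voom and 0 with the replicate block, and with 1 library left out 0 to 2 rose and 0 to 1 fell. In neurons, KO + Impact against WT gave 1 with DESeq2 and 2 with the replicate block. The difference of caudate putamen from the other regions gave 2 with the block added after seeing the data. The cause of these shifts was not tested. No named log2 fold change that was called turned its direction, and the replicate block changed no call of the members in pituitary.

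All genes called varied more. With 1 library left out they were 826 to 1939 in caudate putamen (1559 with all libraries), 1060 to 2058 in hypothalamus (1823), 764 to 1520 in periaqueductal gray (1458), 705 to 1483 in substantia nigra (1457), 0 to 9 in pituitary (1), 46 to 103 for KO against WT neurons (107), 22 to 50 for KO + Impact against WT (56), 1 to 3 for KO + Impact against KO (1), 40 to 104 for the regional difference (86) and 26 to 51 for the interaction (51). The replicate block gave 889 in substantia nigra, 33 in pituitary, 942, 503 and 27 in the neuron comparisons (KO against WT, KO + Impact against WT, KO + Impact against KO), 132 for the regional difference and 85 for the interaction. The added block gave 227 and 151 for these last comparisons. DESeq2 gave 320, 155 and 8 in the neuron comparisons, 13 in TRAP and 5 in pituitary, and no filter gave 75 in pituitary and 2 for KO + Impact against KO. Same-numbered cKO and cHet libraries of a brain region correlated between -0.235 and 0.261. Pituitary, at 2.24 to 3.10 M tags, and TRAP, with 10 members tested, limit what could be detected.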

Other observations

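Outside the members, the pathway genes named here were chosen after their values were seen. Of 77 tested in hypothalamus 6 rose and 6 fell, of 73 in periaqueductal gray 2 rose and 1 fell, and of 80 in substantia nigra 3 rose and 0 fell. The shares of all genes called higher and lower were 5.57% and 6.42% in hypothalamus, 4.33% and 5.4% in periaqueductal gray, and 4.35% and 5.46% in substantia nigra, so the hypothalamus counts are near the background. Ogfr, the gene of an opioid growth factor receptor, rose in cKO in all 4 regions, with log2 fold changes of 0.29 in substantia nigra, 0.52 in hypothalamus, 0.34 in caudate putamen and 0.35 in periaqueductal gray (SE 0.08 to 0.10, adjusted p = 0.000679 to 0.0326, edgeR). Mavs, the adaptor through which RIG-I and MDA5 signal, fell in hypothalamus (-0.37, SE 0.12) and periaqueductal gray (-0.59, SE 0.11). It was at 11.8 ± 1.14 CPM in cKO and 17.7 ± 1.67 CPM in cHet periaqueductal gray (SD, n = 4 each). In hypothalamus, Irf3, which MAVS signalling activates, and Tmem173, the gene of the DNA-sensing adaptor STING, also fell (-0.36, SE 0.10 and -0.76, SE 0.23). Oas1b rose in hypothalamus (2.12, SE 0.42) as in caudate putamen.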
